A study of Bos taurus with 17 samples.

Results

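The growth hormone and insulin-like growth factor (IGF) axis was followed in bovine cumulus cells through 10 of its genes: the growth hormone receptor GHR, the ligands IGF1 and IGF2, the receptors IGF1R and IGF2R, the binding proteins IGFBP2, IGFBP3, IGFBP4 and IGFBP5, and the protease PAPPA. The members were the array probes that the files name after one of these symbols, or describe as one of these genes where the name is only a LOC number, with GHR limited to probes A_73_108723 and A_73_109592. There were 13 such probes out of 21475 on the array, which carry 20391 different gene or transcript names. Of the 13865 valid probes, those flagged present in 80% or more of the animals at each stage, 10 were member probes, and 7 of the 10 genes had at least 1 valid probe. IGF1, IGFBP5 and PAPPA had none.

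In the follicle, growth hormone acts through GHR, while IGF1 and IGF2 act through IGF1R, a receptor tyrosine kinase that supports granulosa cell growth and steroid synthesis together with FSH. IGF2R takes IGF2 into the cell for breakdown and does not pass on the growth signal. The binding proteins hold the ligands away from the receptor, and PAPPA, a secreted metalloprotease, cuts several of them, above all IGFBP4, so that the ligand is set free. In the bovine follicle IGF2 is known mainly as a product of the theca, the layer outside the granulosa.

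Cumulus cells, the somatic cells around the oocyte, were compared at 3 stages of oocyte developmental competence. NC1 was compact cumulus of 6 calves aged 3 to 6 months, whose prophase I oocytes have no or little developmental competence. C1 was compact cumulus of 6 adult cows of different ages, around competent prophase I oocytes, and both came from follicles of 3 to 6 mm aspirated after slaughter. C2 was expanded cumulus of 5 non-lactating Holstein cows aged 3 to 5 years, around mature metaphase II oocytes. These cows had received progestagen implants, porcine FSH/LH and prostaglandin F2α, and their follicles of more than 8 mm were aspirated in life 60 h after the prostaglandin. Age and stage therefore cannot be told apart between NC1 and C1, nor can stage, hormone treatment, follicle size and collection between C2 and the other stages. The labels give the tissue as ovarian follicles and the treatment as cumulus cells separated from oocytes. The methods give as many animals as arrays at each stage, so each sample was taken as 1 animal. Each was run on 1 single-colour array, and the number of animals limits the precision. A level below is the log2 signal of a probe after subtraction of the array median (log2 scaled signal), so that 0 is the median probe of that array. Levels of different probes cannot be compared with each other.

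All 8 granulosa and cumulus markers were well above background on every array, with a mean level over the list of 7.37 to 8.39 in NC1, 7.60 to 8.13 in C1 and 4.90 to 6.76 in C2. In C2 against C1, 5 of these 8 genes fell and the 4 genes of cumulus expansion (HAS2, PTX3, TNFAIP6, PTGS2) rose. Over all valid probes, 12.8% fell and 15.3% rose in this comparison. The 7 oocyte markers with a probe had a mean level of 1.12 to 2.22 in NC1, -4.41 to 1.03 in C1 and -3.90 to -3.38 in C2, and 4 of the 7 were well above background on no C2 array, among them ZP2, MOS and BMP15. The part of oocyte transcripts in any difference against NC1 was not tested. Of the other marker lists, 3 of 6 valid leukocyte genes and 1 of 5 endothelial genes (KDR) rose from C1 to C2, and 1 of 2 red blood cell genes (HBA) fell. The other valid endothelial genes did not pass against C1. TEK, PECAM1 and TIE1 differed by -0.78, -0.70 and -0.11 and VWF by 0.49. The C2 arrays of VWF were split, at 2.46, -3.60, -3.13, -2.94 and 1.94 on replicates 1 to 5. Replicates 1 and 5 were above all NC1 and C1 arrays (highest -0.86), and the others were below them all (lowest -2.69). Against NC1, TEK was lower in C2 and passed (-1.61; limma, adjusted p = 1.85e-05). In bulk samples fewer cells of a type and less RNA per cell cannot be told apart.

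The C2 arrays did not lie evenly. Over all valid probes the standard deviation of the log2 difference was 0.444 between C2 replicates 1 and 5 and 0.512 between replicates 3 and 4, whereas pairs of C2 arrays had a median of 1.24 and pairs of C1 arrays a median of 0.559. Replicates 1, 2 and 5 were scanned on day 1 and replicates 3 and 4 on day 2. Whether the close arrays share an animal or a pool is not in the labels. The fit of the 3 stages was therefore repeated with the close arrays averaged or left out, and these values are given where they changed a call of a valid member or a named pathway gene.

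**Figure D1:**
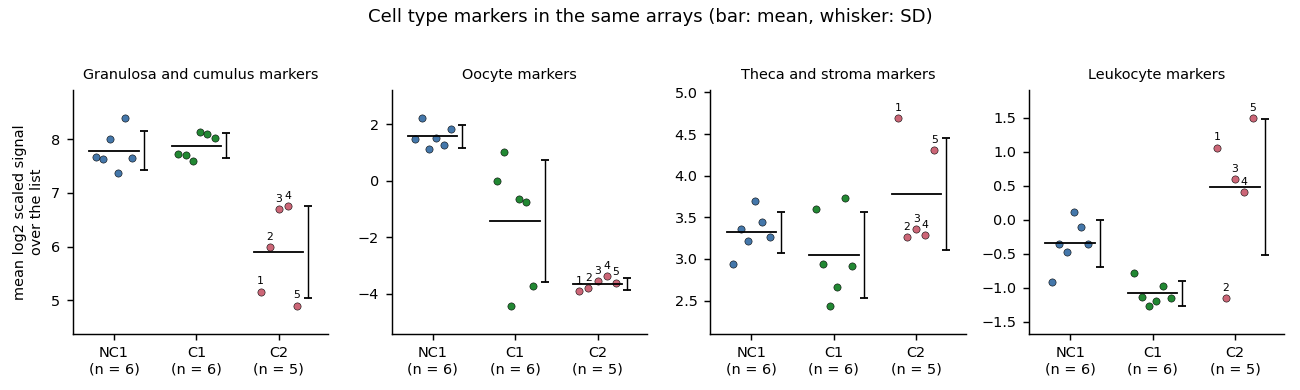
Mean log2 scaled signal over the markers of 4 cell types (vertical axis) in each array of NC1 (n = 6), C1 (n = 6) and C2 (n = 5), with bars for stage means and whiskers for the SD; numbers mark the C2 replicates. Granulosa and cumulus markers lie at 4.90 to 6.76 in C2 and at 7.37 or more elsewhere, oocyte markers are highest in NC1, and theca and stroma markers are highest in C2 replicates 1 (4.69) and 5 (4.31).

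The oligos of the receptor IGF1R and of IGFBP2 are shown because the 2 IGF1R oligos gave different results and IGFBP2 fell. They are 60 bases long, read 5′ to 3′ as the array files give them, with nothing set in capitals.
IGF1R A_73_118287: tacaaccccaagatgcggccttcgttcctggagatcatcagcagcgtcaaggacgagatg
IGF1R A_73_103293: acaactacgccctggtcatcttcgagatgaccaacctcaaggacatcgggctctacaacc
IGFBP2 A_73_103681: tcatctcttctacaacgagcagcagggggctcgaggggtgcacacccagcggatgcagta
The IGF1R oligos share no run longer than 8 bases. The second is named LOC619174 in the files and described there as IGF1R.

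IGF2 was higher in C2 than in both other stages by 1 of its 2 probes. On probe A_73_104925 the 6 NC1 arrays read -0.57, 0.43, -0.15, 0.98, 0.44 and 0.90. The 6 C1 arrays read 2.30, -0.65, 1.34, -1.69, 1.37 and -2.57, and the 5 C2 arrays read 9.27, 5.37, 4.78, 2.92 and 9.01. Every C2 array was above every array of the other stages, and the C2 arrays themselves ranged widely, with replicates 1 and 5 highest. The mean level was 0.34 ± 0.60 (SD, n = 6) in NC1, 0.02 ± 1.94 (SD, n = 6) in C1 and 6.27 ± 2.77 (SD, n = 5) in C2. IGF2 rose by 6.25 ± 1.02 (SE) on the log2 scale, 76.2-fold, from C1 to C2 (limma with Benjamini-Hochberg adjustment over all valid probes, adjusted p = 8.93e-05). Against NC1 the difference was 5.93 ± 1.02 (SE), 61.0-fold (limma, adjusted p = 0.000158), from the same C2 arrays. The 2-sided exact permutation p was 0.00433 in both comparisons, the smallest that 5 against 6 arrays allow. Only 16 of the 13865 valid probes had a larger rise from C1 to C2, and 89 had a larger SD among the C2 arrays.

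The rise of this IGF2 probe was seen on each slide and each scan day. Within the 5 slides that held both stages, C2 exceeded C1 by 1.58 to 11.84 and NC1 by 1.94 to 9.84. Within scan day 1 C2 exceeded C1 by 7.51 and within day 2 by 4.18. With C2 replicates 1 and 5 left out the difference against C1 was 4.34 (limma, adjusted p = 0.000458), and with both close pairs averaged it was 6.10 (limma, adjusted p = 0.000247).

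Some theca and stroma markers were also higher in C2. Of the 8 markers, all valid, by the brightest probe of each, LUM and COL1A1 rose from C1 to C2 and LUM from NC1 to C2. The other 6 did not pass in either comparison. Over all valid probes, 15.3% rose from C1 and 15.5% from NC1. DCN, a matrix proteoglycan, did not pass on its brightest probe, but its other valid probe, A_73_104758, rose by 4.08 ± 0.55 (SE) on the log2 scale from C1 (limma, adjusted p = 1.17e-05) and by 3.29 ± 0.55 (SE) from NC1 (limma, adjusted p = 0.000117). On that probe the C2 arrays read 3.09, 1.57, 2.33, 2.38 and 3.02, all above the highest C1 (0.44) and NC1 (-0.21) arrays, and highest on replicates 1 and 5. The mean level of the 8, by brightest probe, was 2.94 to 3.69 in NC1, 2.44 to 3.73 in C1, and 4.69 and 4.31 in C2 replicates 1 and 5. In C2 replicates 2, 3 and 4 it was 3.26 to 3.36, within the range of NC1, and IGF2 there read 2.92 to 5.37, above all 12 arrays of NC1 and C1. The single markers were not ordered alike within C2. COL3A1 read 4.28, -2.93, 0.82, -0.52 and 3.06 on replicates 1 to 5 and was highest on 1 and 5. So were ACTA2 (4.74, 1.29, 1.83, 1.05 and 3.29) and PDGFRA (4.64, 1.45, 0.97, 0.83 and 3.52). The brightest probe of DCN (3.07, 2.77, 1.42, 1.58 and 3.43) and CYP17A1 (2.15, 2.10, 1.34, 1.65 and 2.25) were also highest there. INSL3 read 6.19, 7.40, 6.39, 6.87 and 6.89 and was lowest on replicate 1. LUM read 7.18, 7.52, 8.11, 8.64 and 6.16 and COL1A1 5.26, 6.48, 5.99, 6.25 and 5.84, both lower on replicates 1 and 5 than on the other C2 arrays. All C2 arrays of LUM were above the highest NC1 (4.70) and C1 (4.63) arrays. CYP17A1, the androgen-making enzyme of the theca, had a level of 1.90 ± 0.39 (SD, n = 5) in C2 and 2.15 in C1, a difference that did not pass (limma, adjusted p = 0.312). INSL3, of the same list, differed from C1 by -0.78 ± 0.26 (SE) and did not pass either (limma, adjusted p = 0.0221). The part of theca or stroma cells in the IGF2 level of any C2 array was not tested.

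The other IGF2 probe, A_73_105403, did not rise. It read -1.49 ± 0.32 (SD, n = 6) in NC1, -1.31 ± 0.28 (SD, n = 6) in C1 and -1.98 ± 0.42 (SD, n = 5) in C2, with C2 arrays at -2.68, -1.89, -1.81, -1.58 and -1.91. The C2 arrays overlapped those of both stages. Its difference of -0.66 ± 0.21 (SE) against C1 did not pass the threshold of 0.01 (limma, adjusted p = 0.0189), nor did that of -0.48 ± 0.21 (SE) against NC1 (limma, adjusted p = 0.0806). Within the 5 shared slides C2 minus C1 was -1.01 to -0.16 and C2 minus NC1 -0.67 to -0.17. The fall from C1 passed under 2 of 31 alternative settings. These were scaling to the 75th percentile (-0.79; limma, adjusted p = 0.00873) and array weights (-0.83; limma, adjusted p = 0.00923). In the fit reported only the first of the 2 probes of the gene was called, and which transcript each reads was not tested.

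IGF1, the ligand that growth hormone induces in liver, was dim throughout. Its probe A_73_108570 was well above background on 4 of 6 NC1, 5 of 6 C1 and 4 of 5 C2 arrays and was not valid. The level was -3.00 ± 0.79 (SD, n = 6) in NC1, -3.28 ± 0.49 (SD, n = 6) in C1 and -2.48 ± 0.93 (SD, n = 5) in C2, and the arrays of all stages overlapped. Without a filter on dim probes no difference passed, the nearest being 0.80 ± 0.42 (SE) from C1 to C2 (limma, adjusted p = 0.153).

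GHR, the receptor for growth hormone, had lower means in C2 on both member probes. On the brighter probe, A_73_108723, the NC1 arrays read 3.93, 3.78, 4.26, 3.50, 3.38 and 3.88 and the C1 arrays 3.89, 3.73, 3.96, 3.98, 3.56 and 4.13. The C2 arrays read 3.54, 1.69, 2.23, 2.77 and 3.14. All 5 were below every C1 array, and 4 of the 5 were below every NC1 array. The order of the means was C1 (3.88 ± 0.20, SD, n = 6), NC1 (3.79 ± 0.32, SD, n = 6) and C2 (2.67 ± 0.73, SD, n = 5), and the first pair did not differ beyond their spread. GHR fell by 1.20 ± 0.27 (SE) on the log2 scale, 2.30-fold, from C1 to C2 (limma, adjusted p = 0.00142). The difference from NC1 was -1.11 ± 0.27 (SE), 2.17-fold (limma, adjusted p = 0.00264). Within slides the difference against C1 lay between -1.87 and -0.60. With C2 replicates 3 and 4 left out the differences were -1.09 against C1 and -1.0 against NC1 and neither call held (limma, adjusted p = 0.0114 and 0.0181), while with replicates 1 and 5 left out the difference against C1 was -1.64 (limma, adjusted p = 3.14e-05).

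The other GHR probe, A_73_109592, fell stepwise in its means, from 0.43 ± 0.69 (SD, n = 6) in NC1 to -0.65 ± 0.74 (SD, n = 6) in C1 and -1.61 ± 0.54 (SD, n = 5) in C2, but only the ends of this order passed the test. NC1 arrays read 0.97, 1.41, -0.13, 0.51, -0.47 and 0.30, C1 arrays -0.04, -1.09, 0.15, -0.12, -1.13 and -1.65, and C2 arrays -1.17, -1.22, -1.59, -2.51 and -1.54. Every C2 array was below every NC1 array, while C1 overlapped both. The difference of C2 from NC1 was -2.04 ± 0.37 (SE), 4.11-fold (limma, adjusted p = 0.000278, exact permutation p = 0.00433). C2 differed from C1 by -0.96 ± 0.37 (SE; limma, adjusted p = 0.0468) and C1 from NC1 by -1.08 ± 0.36 (SE; limma, adjusted p = 0.236), and neither passed. Over the 17 arrays the 2 GHR probes correlated with r = 0.518, as a description, since the arrays share their stages.

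A further probe that the files name LOC407099 and describe as GHR, A_73_104793, stood outside the 2 probes chosen for the gene and went the other way. It was dim and not valid, with levels of -2.81 ± 0.37 (SD, n = 6) in NC1, -3.05 ± 0.27 (SD, n = 6) in C1 and -2.00 ± 0.25 (SD, n = 5) in C2. Without the filter it was higher in C2 than in C1 by 1.05 ± 0.21 (SE; limma, adjusted p = 0.000737), with all 5 C2 arrays above all C1 arrays. It was also higher in C2 than in NC1, by 0.81 ± 0.21 (SE; limma, adjusted p = 0.00612), with 4 of the 5 C2 arrays above all NC1 arrays. Against C1 the fall of GHR thus passed on A_73_108723 alone, and against NC1 on both member probes but not on this further one.

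**Figure D2:**
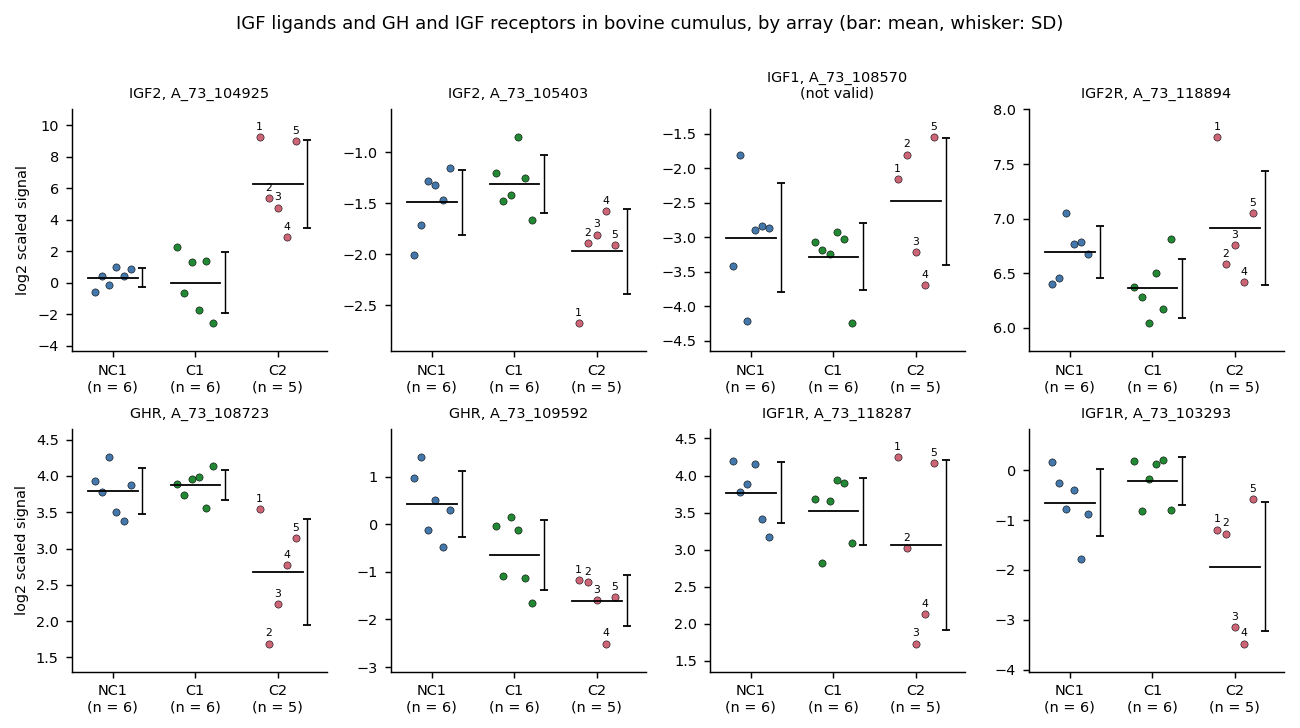
Log2 scaled signal (vertical axis, own range in each panel) of the probes of IGF2, IGF1, IGF2R, GHR and IGF1R on every array of NC1 (n = 6), C1 (n = 6) and C2 (n = 5), with bars for means, whiskers for the SD and numbers for the C2 replicates. On IGF2 A_73_104925 the C2 arrays read 2.92 to 9.27, above all others, and on GHR A_73_108723 they read 1.69 to 3.54, below all C1 arrays.

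The 2 probes of IGF1R, the receptor through which both ligands signal, were not called alike. On A_73_118287 the C2 arrays read 4.25, 3.02, 1.73, 2.13 and 4.17, against 3.17 to 4.20 in NC1 and 2.82 to 3.94 in C1. Replicates 1 and 5 were thus above all C1 arrays and replicates 3 and 4 below all arrays of the other stages. The means were 3.77 ± 0.41 (SD, n = 6), 3.52 ± 0.46 (SD, n = 6) and 3.06 ± 1.15 (SD, n = 5), and no difference passed (C2 minus C1 -0.46, 95% interval -1.29 to 0.38; limma, adjusted p = 0.382). Leaving out replicates 3 and 4 turned this difference to 0.30, and leaving out replicates 1 and 5 made it -1.22 (limma, adjusted p = 0.00476). Against NC1 it was then 0.05 and -1.47 (limma, adjusted p = 0.925 and 0.00117).

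On A_73_103293 the C2 arrays read -1.19, -1.27, -3.15, -3.48 and -0.58, against -1.78 to 0.17 in NC1 and -0.82 to 0.20 in C1. Here too replicates 3 and 4 were lowest, and 4 of the 5 C2 arrays were well above background. Replicates 3 and 4 read below the lowest signal among probes well above background on those arrays (-3.05 and -3.36). The size of the fall is therefore limited by low signal. IGF1R by this probe fell by 1.72 ± 0.47 (SE) on the log2 scale, 3.29-fold, from C1 to C2 (limma, adjusted p = 0.00655). The call against C1 was lost when C1 replicate 1, 3, 4 or 5 or C2 replicate 3 or 4 was left out (limma, adjusted p = 0.0127 to 0.0230), and without both C2 replicates 3 and 4 the difference was -0.80 (limma, adjusted p = 0.0968). It was -1.61 with the close arrays averaged (limma, adjusted p = 0.0148) and -2.41 with replicates 1 and 5 left out (limma, adjusted p = 0.000302). With slide as a block it was -1.80 and did not pass (limma, adjusted p = 0.0116), and with normexp background correction it was -0.72 (limma, adjusted p = 0.0159). Against NC1 the difference of -1.28 ± 0.47 (SE) did not pass (limma, adjusted p = 0.0351), though it was -1.98 and passed with replicates 1 and 5 left out (limma, adjusted p = 0.00173). That the 2 probes differ from each other was not tested.

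IGF2R, which removes IGF2, did not pass in any comparison. It read 6.69 ± 0.24 (SD, n = 6) in NC1, 6.36 ± 0.27 (SD, n = 6) in C1 and 6.91 ± 0.52 (SD, n = 5) in C2, with C2 arrays at 7.75, 6.58, 6.76, 6.42 and 7.05. C2 was above C1 within each of the 5 shared slides, by 0.26 to 0.93. The difference of 0.55 (95% interval 0.08 to 1.01) nevertheless did not pass (limma, adjusted p = 0.0547), nor did that of 0.22 (95% interval -0.25 to 0.68) against NC1 (limma, adjusted p = 0.465).

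The mean of IGFBP2 was lower in C2 than in both compact stages. The NC1 arrays of A_73_103681 read -0.67, 0.15, 0.17, 1.13, -0.90 and 0.07, the C1 arrays 0.59, -0.64, 0.24, -1.33, 1.12 and -0.73, and the C2 arrays -0.70, -2.22, -3.53, -3.23 and -1.09. Of the 5 C2 arrays, 4 were below all NC1 arrays and 3 below all C1 arrays, and 4 were well above background. Replicate 3 read below the lowest signal among probes well above background on that array (-3.05), which limits the size of the fall. The means were -0.01 ± 0.72 (SD, n = 6), -0.12 ± 0.92 (SD, n = 6) and -2.15 ± 1.26 (SD, n = 5). IGFBP2 fell by 2.03 ± 0.53 (SE) on the log2 scale, 4.08-fold, from C1 to C2 (limma, adjusted p = 0.00497), and the difference from NC1 was -2.14 ± 0.53 (SE), 4.42-fold (limma, adjusted p = 0.00337). The exact permutation p was 0.0260 against C1 and 0.00866 against NC1. Within the 5 shared slides C2 minus C1 was -3.48 to 0.03 and C2 minus NC1 -4.36 to -0.02. On slide 1 there was thus no fall (0.03 and -0.02). Within scan day 1 the difference was -1.66 from C1 and -0.86 from NC1, and within day 2 -2.81 and -3.84. The call against C1 was lost when C1 replicate 1, 3 or 5 or C2 replicate 3 or 4 was left out (limma, adjusted p = 0.0116 to 0.0178). That against NC1 was lost without C2 replicate 3 or 4 (limma, adjusted p = 0.0120 and 0.0121). With slide as a block the difference against C1 was -2.07 (limma, adjusted p = 0.0111), and with normexp background correction it was -0.94 (limma, adjusted p = 0.0147). Leaving out C2 replicates 3 and 4 together gave -1.21 against C1 (limma, adjusted p = 0.0771) and -1.32 against NC1 (limma, adjusted p = 0.0508), and leaving out replicates 1 and 5 gave -2.87 (limma, adjusted p = 0.000155) and -2.99 (limma, adjusted p = 0.000108). With the close arrays averaged it was -2.04 against C1 (limma, adjusted p = 0.0102) and -2.15 against NC1 (limma, adjusted p = 0.0074).

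IGFBP3, the main IGF carrier of serum, varied more between C2 arrays than between stages. Its C2 arrays read 1.89, 5.32, 6.28, 6.52 and 2.62, with replicates 1 and 5 low and 3 and 4 high, the reverse of their order on IGF2 and IGF1R. The C1 arrays ranged from 2.09 to 5.22 and the NC1 arrays from 4.19 to 5.87. The mean in C2 was 4.53 ± 2.14 (SD, n = 5) and its difference from C1 was 0.43 (95% interval -1.20 to 2.05; limma, adjusted p = 0.686). It was -1.61 within scan day 1 and 3.09 within day 2.

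IGFBP4, an inhibitor of FSH action on granulosa cells, read 3.85 ± 0.59 (SD, n = 6) in NC1, 4.23 ± 0.39 (SD, n = 6) in C1 and 3.14 ± 1.02 (SD, n = 5) in C2. The C2 arrays read 2.73, 3.12, 4.02, 4.17 and 1.67, and 3 of the 5 were below all C1 arrays. The difference of -1.09 ± 0.38 (SE) from C1 did not pass (limma, adjusted p = 0.0305), although C2 was below C1 on all 5 shared slides. Within scan day 1 it was -1.86 and within day 2 0.01. Without C2 replicate 4 it was -1.34 and passed (limma, adjusted p = 0.00978), and without replicate 5 it was -0.72 (limma, adjusted p = 0.0968). With replicates 3 and 4 left out it was -1.72 (limma, adjusted p = 0.00117), with replicates 1 and 5 left out -0.46 (limma, adjusted p = 0.287), and with the close arrays averaged -1.09 (limma, adjusted p = 0.0385). Against NC1 the difference without replicates 3 and 4 was -1.34 and passed (limma, adjusted p = 0.00708), and without 1 and 5 it was -0.08.

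IGFBP5 was at the limit of measurement on its member probe, A_73_103570. It was well above background on 2 of 6 NC1, 4 of 6 C1 and 2 of 5 C2 arrays. The C2 arrays read -0.32, -5.80, -5.39, -5.32 and -0.06, so that replicates 1 and 5 stood above all other arrays, which lay at -2.13 or lower. The C2 mean was -3.38 ± 2.92 (SD, n = 5), and its difference from C1 of 0.58 (95% interval -1.55 to 2.72) did not pass (limma without the filter, adjusted p = 0.679). A brighter probe named only after an expressed sequence and described as IGFBP5, A_73_110179, gave 7.47, 1.05, 3.01, 2.41 and 7.28 in C2, with replicates 1 and 5 again above all other arrays, whose highest value was 4.44. No stage difference passed on it (C2 minus C1 1.23 ± 0.99, SE; limma, adjusted p = 0.341).

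PAPPA was well above background on none of 6 NC1, 4 of 6 C1 and all 5 C2 arrays of A_73_110197. The C2 arrays read -3.13, -3.40, -3.33, -3.29 and -2.26 and the C1 arrays -4.71, -4.31, -4.00, -3.69, -3.15 and -4.34. For a probe dim on every array of a stage, its level there was bounded, on each array, by the higher of its own signal and the lowest signal among probes well above background. No fold is given against NC1, since the C2 mean of -3.08 was not above that bound (-3.01). All 5 C2 arrays read above all NC1 arrays. Without the filter the difference from NC1 was 1.35 ± 0.26 (SE; limma, adjusted p = 0.0007), but its size was not measured, as NC1 lay at background. Without the filter the difference from C1 was 0.95 ± 0.26 (SE; limma, adjusted p = 0.00987), and 2 of the 5 C2 arrays were above all C1 arrays.

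**Figure D3:**
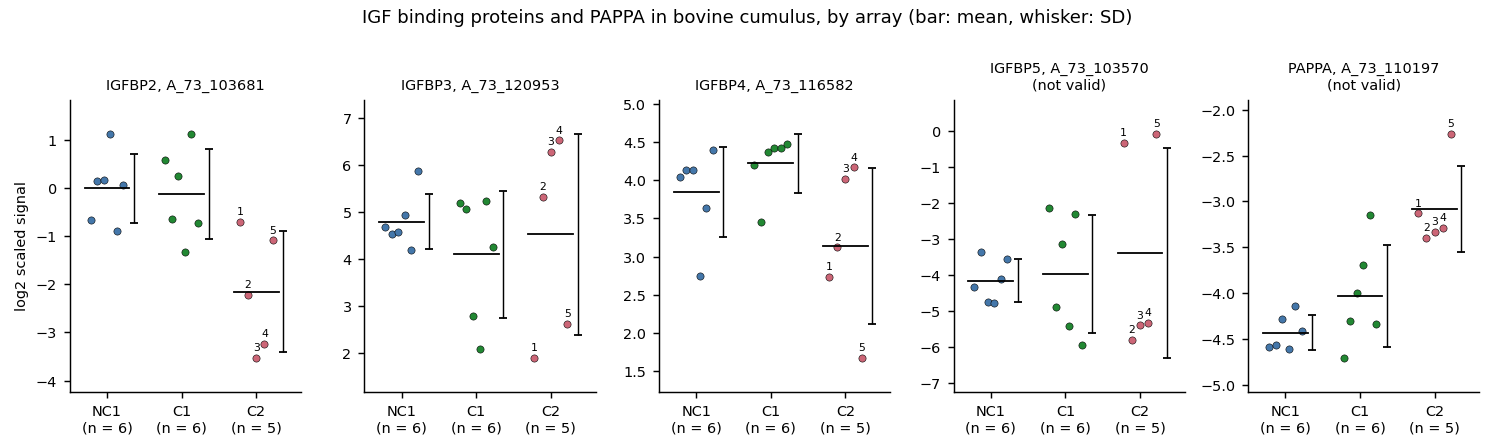
Log2 scaled signal (vertical axis, own range in each panel) of IGFBP2, IGFBP3, IGFBP4, IGFBP5 and PAPPA on every array of NC1 (n = 6), C1 (n = 6) and C2 (n = 5), with bars for means, whiskers for the SD and numbers for the C2 replicates. IGFBP2 lies at -3.53 to -0.70 in C2, and on IGFBP3 the C2 replicates 1 and 5 (1.89 and 2.62) lie far below replicates 2, 3 and 4 (5.32 to 6.52).

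Counted together, 1 of the 10 valid member probes rose and 3 fell from C1 to C2 (adjusted p under 0.01), while 28.1% of all valid probes were called, 15.3% higher and 12.8% lower. Against NC1 the count was also 1 higher and 3 lower, where again 28.1% of all valid probes were called, 15.5% higher and 12.6% lower. Called in both were IGF2 A_73_104925, GHR A_73_108723 and IGFBP2, while IGF1R A_73_103293 was called against C1 and GHR A_73_109592 against NC1. For neither of these did C1 minus NC1, the test of the difference between the 2 comparisons, pass (limma, adjusted p = 0.814 and 0.236). Both comparisons use the same C2 arrays. The arrays of the 2 stages did not overlap for 2 of the 10 members in each, where 21.6% and 20.9% of all valid probes did not overlap. A moderated F test over the 3 stages called 4 of the 10, IGF2 A_73_104925, both GHR probes and IGFBP2, where 28.6% of all valid probes were called. The median difference of the 10 members was -0.81 against C1 and -0.71 against NC1, where that of all valid probes was 0.02 and 0.11.

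Between C1 and NC1 none of the 10 valid member probes was called, where 0.0577% of all valid probes were (limma with Benjamini-Hochberg adjustment). None was called under any of 31 alternative settings either. Only GHR A_73_109592 had an unadjusted limma p under 0.05 (1 of 10), where 1365 of the 13865 valid probes did. The median difference of the members was -0.18 and that of all valid probes 0.05. The widest intervals were those of IGF2 A_73_104925 (-2.37 to 1.73) and IGFBP3 (-2.24 to 0.86), so that changes of several fold in either gene were not detectable here.

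**Figure D4:**
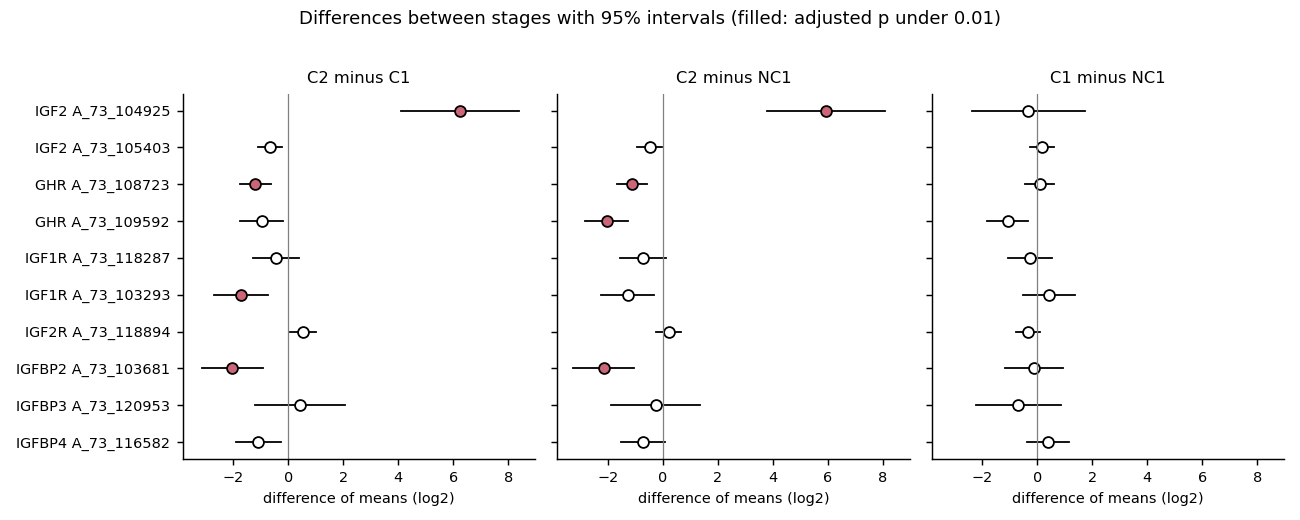
Differences of stage means on the log2 scale (horizontal axis) with 95% intervals for the 10 valid member probes in the 3 comparisons; filled points have an adjusted p under 0.01. IGF2 A_73_104925 lies at 6.25 and 5.93 in the comparisons with C2, the other called members lie between -2.14 and -1.11, and no point is filled for C1 minus NC1.

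The other genes of the pathway were counted from 5 lists of 59 genes, of which 52 had a probe and 38 a valid one. From C1 to C2 6 of the 38 rose and 2 fell, 21.1% of them, and against NC1 6 rose and 3 fell, 23.7%, both below the 28.1% called over all valid probes. SOCS1, IGFBP6, EIF4EBP1, PIK3R1 and PIK3CA passed against C1 with the close C2 arrays averaged and with either pair left out. The median difference of the 38 was 0.28 against C1 and 0.16 against NC1. None of the 38 was called between C1 and NC1 by limma.

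Of the growth hormone signalling list, 10 of 11 genes were valid. SOCS1, a feedback inhibitor of cytokine receptor signalling, was the 1 that fell from C1 to C2. It read 4.57 to 6.36 in C1 and 4.04, 3.06, 2.58, 2.92 and 3.60 in C2. The stages did not overlap, and the difference was -2.14 ± 0.30 (SE), 4.40-fold (limma, adjusted p = 1.91e-05). JAK2, the kinase bound to GHR, and the transcription factors STAT5A and STAT5B differed from C1 by 0.32, 0.56 and 0.91, none past the threshold (limma, adjusted p = 0.274, 0.103 and 0.0654). SOCS2, a feedback inhibitor of GHR, did not pass either (limma, adjusted p = 0.364), with C2 arrays at -1.99, 3.10, 3.56, 3.51 and -0.60 against 1.85 to 3.09 in C1. The ligand GH1 was well above background on 1 of 5 C2 arrays and was not valid.

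Of the other IGF binding proteins and their regulators, 6 of 11 genes were valid and IGFBP6, which binds IGF2 in preference to IGF1, was the 1 that rose in C2. Its C2 arrays read 5.42, 3.51, 4.87, 4.93 and 4.34, all above the highest C1 array (3.49) and NC1 array (3.30). It rose by 1.77 ± 0.29 (SE) on the log2 scale, 3.42-fold, from C1 (limma, adjusted p = 0.0001). The proteases PAPPA2 and HTRA1 and the PAPPA inhibitor STC1 differed from C1 by 0.17, -0.05 and 0.32, and none passed (limma, adjusted p = 0.598, 0.865 and 0.494).

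Of the receptor adaptor list, 8 of 12 genes were valid and GRB2, which links receptors to RAS, was the 1 called, higher by 0.91 ± 0.25 (SE) in C2 than in C1 (limma, adjusted p = 0.00789). It passed under 13 of 31 alternative settings, and neither with the close C2 arrays averaged (0.77; limma, adjusted p = 0.0582) nor with slide as a block, normexp or most single arrays of C1 or C2 left out. IRS1 and IRS2, the docking proteins of IGF1R, differed from C1 by -0.18 and -0.24 (limma, adjusted p = 0.469 and 0.695). INSR, the insulin receptor, was not valid because 3 of 5 C2 arrays were well above background, and it is named here after its values were seen. Its C2 arrays read -2.04, -1.14, -4.16, -3.93 and -1.59, below all 12 arrays of NC1 (-0.11 to 1.34) and C1 (-0.24 to 1.22).

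Of the PI3K, AKT and mTOR list, 14 of 22 genes were valid, and from C1 to C2 4 rose and 1 fell. EIF4EBP1, the translation repressor that mTOR inactivates, read 4.71 to 5.73 in C1 and 7.64, 6.49, 7.47, 7.89 and 8.00 in C2, a rise of 2.29 ± 0.28 (SE), 4.90-fold (limma, adjusted p = 3.33e-06). PIK3R1, a regulatory subunit of PI3K, read 6.92 to 7.36 in C1 and 7.95 to 8.48 in C2 and rose by 1.13 ± 0.20 (SE; limma, adjusted p = 0.000206) on its brightest probe, though it was the 1 of its 3 valid probes that passed, and another pointed the other way. The catalytic subunit PIK3CA rose by 0.91 ± 0.21 (SE; limma, adjusted p = 0.0017) and RHEB, the small GTPase that switches mTOR on, by 0.89 ± 0.21 (SE; limma, adjusted p = 0.00273). The RHEB call was lost with the close arrays averaged (0.76; limma, adjusted p = 0.0175), without C2 replicates 3 and 4 (0.50; limma, adjusted p = 0.0303) and with normexp. TSC2 and TSC1 form the complex that holds RHEB off. TSC2 fell by 0.79 on the log2 scale from C1 (SE 0.20; limma, adjusted p = 0.00467), and the difference of TSC1 was -0.76 (SE 0.24; limma, adjusted p = 0.0152) from C1 and -0.97 (SE 0.24; limma, adjusted p = 0.00301) from NC1. The TSC2 call was lost without C1 replicate 4 or 6 or C2 replicate 2, 3 or 4 (limma, adjusted p = 0.0114 to 0.0132), with the close arrays averaged (limma, adjusted p = 0.0121), without both C2 replicates 3 and 4 (limma, adjusted p = 0.0378) and with array weights (limma, adjusted p = 0.0253). That of TSC1 against NC1 was lost with slide as a block (-0.98; limma, adjusted p = 0.0113), with the close arrays averaged (-0.91; limma, adjusted p = 0.0102), without C2 replicates 3 and 4 (-0.72; limma, adjusted p = 0.0257) and with normexp (-0.69; limma, adjusted p = 0.0287).

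The IGF2 mRNA-binding proteins had no valid probe and are described by level only. IGF2BP2 was well above background on 2 of 6 arrays in NC1, 2 of 6 in C1 and all 5 in C2, where it read 0.72, -1.83, -0.36, -2.74 and 1.14 against -3.81 at most in C1. IGF2BP3 ran the other way, at 0.07 to 2.04 in NC1 and well above background on no C2 array, at least 24.7-fold higher in NC1 than in C2. Its C1 arrays read -0.31, 0.49, -5.09, -1.41, -1.44 and -5.48, low on replicates 3 and 6, which were also the C1 arrays with the lowest oocyte markers (mean level -4.41 and -3.72). The part of oocyte RNA in the IGF2BP3 level was not tested.

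**Figure D5:**
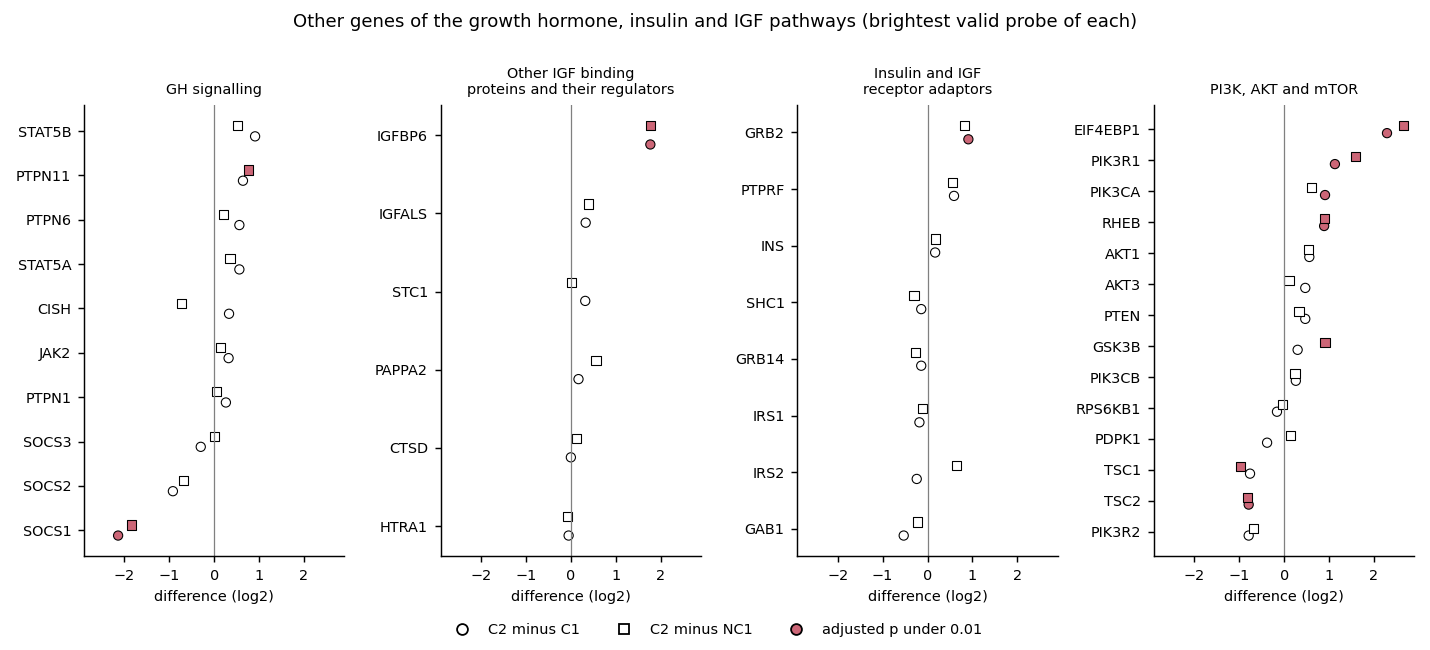
Differences on the log2 scale (horizontal axis) of C2 from C1 (circles) and from NC1 (squares) for the 38 genes of 4 pathway lists with a valid probe, by the brightest valid probe; filled symbols have an adjusted p under 0.01. EIF4EBP1 (2.29 and 2.65) and SOCS1 (-2.14 and -1.85) lie at the ends, and most genes lie between -1 and 1.

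Across the 17 arrays the probes most like GHR A_73_108723 were those of PDGFC, a platelet-derived growth factor (r = 0.946), the transcription factor MYC (r = 0.940) and the glutamate receptor subunit GRIN2D (r = 0.939). Most opposed were FAM43A (r = -0.917), the transcription factor CREB5 (r = -0.917) and TMOD2, a tropomodulin (r = -0.913). These values are a description, since the arrays share 3 stages and a gene that differs between C2 and the rest will correlate with any other that does. MYC, for example, had a level of 6.78 ± 0.42 (SD, n = 6) in NC1, 6.92 ± 0.38 (SD, n = 6) in C1 and 2.14 ± 2.07 (SD, n = 5) in C2.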

How the data were processed

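Total RNA of 17 cumulus samples, each taken as 1 animal, was labelled with Cy3 and hybridised to single-colour Agilent bovine arrays. The authors read spot intensity with Agilent Feature Extraction 10.5.1.1. The deposited table holds log2 intensity values scaled to the array median by the authors for 15256 probes. Values were rebuilt from the deposited processed intensities: spots of a probe were averaged without flagged outlier spots, log2 transformed and centred on the array median, and they differed from the deposited table by at most 1.87e-06 for 99% of values. Median raw intensity per array was 64.2 to 208, and 66.2% to 82.8% of probes were well above background. Valid probes were flagged present in 80% or more of the animals at all 3 stages, as in the study's methods. The 3 stages were fitted together with limma 3.58.1 (R 4.3.3), with Benjamini-Hochberg adjustment over all 13865 valid probes and a threshold of 0.01, and 2-sided exact permutation tests were run per member probe. On simulated data for C2 against C1 this fit recovered 21% of 100 probes changed by 1 and 88% of 100 changed by 2 on the log2 scale. The simulation changed no other probes and drew each array independently, without close C2 pairs. In the data 28.1% of valid probes were called, so these shares do not give the power here.

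Genes were named from the files, updated through RefSeq accessions for 3504 probes, through the probe descriptions for 9444 and through names or synonyms for 388, and 8139 kept the name in the files. The genes named were all members, the pathway genes called with stages that did not overlap, and the probes most and least like GHR. Others were named for their role or their call. The members and lists were chosen with earlier results of these data known. A gene with several valid probes was counted by its brightest. The same replicate number names different animals at different stages. Deviations of same-numbered arrays correlated from -0.317 to 0.252, so they were not treated as pairs. Each of 6 slides held 1 NC1 and 1 C1 array and 5 also 1 C2 array. Alternatives tried were other scalings, normexp background correction, other filters, slide, scan day and replicate blocks, array weights, an analysis of variance without moderation, the deposited table, gene means, and each array left out. Averaging or leaving out the close C2 arrays was chosen after seeing the data. Genome coordinates are not given, as no genome of the array's build was used here.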

Additional observations from a re-analysis of the deposited data

Results flagged for a closer look

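In the 39 groups of 5 or 6 values tested, chance alone sets about 1 in 20 apart, and 3 values stood far from the rest of their stage. IGF1 A_73_108570 read -4.25 on C1 replicate 6, where the nearest C1 array read -3.24. IGFBP4 A_73_116582 read 3.46 on C1 replicate 2, where the nearest read 4.20. PAPPA A_73_110197 read -2.26 on C2 replicate 5, where the nearest read -3.13. The IGF1 and PAPPA probes were not valid.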

How the results depend on the processing

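Of the called members, IGF2 A_73_104925 kept its call under all 31 alternatives in both comparisons with C2, with differences of 4.34 to 7.87 against C1 and 4.02 to 7.54 against NC1. GHR A_73_109592 kept its call against NC1 under all 31, and GHR A_73_108723 under 30 against C1 and 28 against NC1. IGFBP2 kept it under 19 of 31 against C1 and 26 of 31 against NC1, and IGF1R A_73_103293 under 19 of 31 against C1. The number of member probes called from C1 to C2, 4 in the fit reported, was 2 with the close C2 arrays averaged, with C2 replicates 3 and 4 left out, with normexp background correction, in the analysis of variance and with slide as a block, and 2 to 4 with single arrays left out. It rose to 5 with C2 replicates 1 and 5 left out, where the count against NC1 and that of the moderated F test rose from 4 to 6. Against NC1 it was 2 with array weights, as was the count of the moderated F test, and 3 to 5 in both with single arrays left out. With the close C2 arrays averaged, 5 pathway genes were called against C1 and 4 against NC1. The cause was not tested.

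Between C1 and NC1 the 8 probes called over the whole array became 239 with array weights, 25 with no filter, 2 in the analysis of variance and with slide as a block, 32 without C2 replicates 1 and 5, 27 without C2 replicates 3 and 4, and 1 to 19 with single arrays left out. With the replicate number as a block it was 0, while the member probes called were then 3 against C1, where IGFBP2 was lost (-2.08; limma, adjusted p = 0.0119), and 4 against NC1. The samples share only a number, so this block does not stand for a pairing.

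Differences that did not pass changed sign in 20 cases. For C1 minus NC1, IGF2 A_73_104925 became 0.44 with array weights and 0.03 with normexp, and IGF2 A_73_105403 -0.07 and IGF1R A_73_118287 0.02 with normexp. With single arrays left out it ranged from -0.78 to 0.20 for IGF2 A_73_104925 and from -0.36 to 0.13 for IGFBP2. For C2 minus NC1, IGF2R became -0.04 with quantile normalization and -0.11 without C2 replicates 1 and 5. IGFBP3 became -0.52 (array weights) and -0.82 (without C2 replicates 3 and 4) against C1 and 1.25 (without 1 and 5) against NC1, and with single arrays left out it ranged from -0.07 to 1.09 and from -0.76 to 0.39. IGF1R A_73_118287 became 0.30 and 0.05 without C2 replicates 3 and 4. Scaling to the 75th percentile moved the median difference of all valid probes between C2 and C1 from 0.02 to -0.11, and normexp moved that between C1 and NC1 from 0.05 to 0.20. Low signal over background limits IGF1, IGFBP5 and PAPPA, and in C2 also IGF1R A_73_103293 and IGFBP2.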
